A study of Mus musculus with 9 samples.

Results

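H19, Tspan32 and Slc22a18 are genes of the imprinted region at the distal end of mouse chromosome 7. They were taken by gene name from a deposited expression table, and are 3 of the 99 genes in the part of it analysed here. The values come from sequencing of poly(A) RNA in c-Kit+ mouse bone marrow cells, a sorted population in which blood stem cells and progenitors are found. The 9 libraries carried the genotype labels WT, NC and NPC, with 3 libraries each. According to the series, the mice were controls, a model of chronic myelomonocytic leukaemia (CMML), and the same model lacking Piezo1 through a conditional allele. Piezo1 is a cation channel opened by mechanical force. The labels do not spell out NC and NPC. Taking NC for the CMML model, and NPC for the model that also lacks Piezo1, rests on the letters and order of the codes only, so the groups are called by their labels. The sources used here do not give the alleles, the Cre driver, or the age and strain of the mice, nor do they state whether libraries with the same label were made from different mice. The spread behind each p-value is that between libraries and could be technical.

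In an imprinted region, the copy inherited from one parent is expressed more than the other, under the control of DNA regions that are methylated on one parental copy. The distal chromosome 7 region holds a pair of such domains. In one, the long noncoding RNA H19 is made from the maternal copy while its neighbour Igf2 is made from the paternal copy. In the other, the noncoding RNA Kcnq1ot1 of the paternal copy is tied to silencing of nearby genes, among them the growth inhibitor Cdkn1c and the transporter gene Slc22a18. In mouse blood stem cells, the maternal H19 domain is known for a role in keeping the cells quiescent. The table holds totals over both parental copies, so imprinting itself was not measured.

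The 3 genes span 0.924 Mb on GRCm39, as the table gives their positions. H19 (ENSMUSG00000000031) lies on the minus strand of chromosome 7 from 142129262 to 142131917, and the table types its transcripts as lncRNA and retained intron. Tspan32 (ENSMUSG00000000244) lies on the plus strand from 142558783 to 142573381, a gap of 426.9 kb after H19. It is protein-coding and encodes a tetraspanin, a membrane protein of blood cells that the table annotates to platelet aggregation and to negative regulation of T cell proliferation. Slc22a18 (ENSMUSG00000000154) lies on the plus strand from 143027473 to 143053071, a gap of 454.1 kb after Tspan32. It is protein-coding, and the table's Reactome entry describes exchange of organic cations for protons. In RefSeq (GRCm38.p6), 9 further protein-coding genes lie between them. Igf2, Ins2, Th and Ascl2 stand between H19 and Tspan32, and Cd81, Tssc4, Trpm5, Kcnq1 and Cdkn1c between Tspan32 and Slc22a18. None of these 9 was analysed here, nor any other gene of a list of 26 genes of the region and its surroundings, nor any of 33 imprinted genes elsewhere in the genome.

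H19 is the host of a microRNA, miR-675, which is cut from the H19 RNA itself. The hairpin is shown because it is the part of H19 with a known product. It was found in 3 of the 7 H19 transcripts of GENCODE M21 and lies at chr7:142577064-142577147, minus strand, on GRCm38.p6. Libraries of poly(A) RNA measure the host RNA and not the mature microRNAs, which were not analysed here. In the hairpin, capitals mark both mature arms, and in each arm below it, capitals mark the seed (bases 2 to 8). The sequences are from RefSeq.
Mir675 hairpin: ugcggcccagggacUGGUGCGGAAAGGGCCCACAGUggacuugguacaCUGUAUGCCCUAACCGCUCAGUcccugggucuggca
mmu-miR-675-5p: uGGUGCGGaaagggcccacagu
mmu-miR-675-3p: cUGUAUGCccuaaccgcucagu

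The promoters of the other two genes are shown because both genes were measured in blood progenitors. RefSeq (GRCm38.p6) gave 1 promoter for each, from 250 bases before to 50 after the start, at chr7:143004796-143005095 for Tspan32 and chr7:143473539-143473838 for Slc22a18, both on the plus strand. Capitals mark matches, on either strand, to short words bound by factors of blood cells. The word for the GATA family was AGATAA. RUNX factors were represented by the letters TGTGGT. For the ETS family the letters were GGAAGT. The TATA box, as TATAAA, was also searched and had no match in either window.
Tspan32 promoter: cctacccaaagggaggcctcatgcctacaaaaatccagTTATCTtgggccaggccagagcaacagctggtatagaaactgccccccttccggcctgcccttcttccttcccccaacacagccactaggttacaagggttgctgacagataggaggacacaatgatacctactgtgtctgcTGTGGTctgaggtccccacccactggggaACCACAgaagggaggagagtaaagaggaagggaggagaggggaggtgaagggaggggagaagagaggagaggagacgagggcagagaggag
Slc22a18 promoter: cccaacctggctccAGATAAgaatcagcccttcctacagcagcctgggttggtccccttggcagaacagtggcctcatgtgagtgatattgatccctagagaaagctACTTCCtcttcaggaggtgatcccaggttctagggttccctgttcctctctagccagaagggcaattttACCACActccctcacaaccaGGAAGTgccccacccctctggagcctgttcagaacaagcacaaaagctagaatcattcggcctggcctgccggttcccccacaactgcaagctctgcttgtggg

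The Tspan32 window held 1 match to the GATA letters and 2 to the RUNX letters. The Slc22a18 window held 1 match to the GATA letters, 1 to the RUNX letters and 2 to the ETS letters. Of 32851 promoters in the RefSeq table, 11.2% held the GATA letters, 16.8% the RUNX letters, 23.8% the ETS letters and 13.6% TATAAA, so each is a common short word and no matched word overlapped another. Both windows were poor in CpG, with 2 CpG each against a median of 7.0 over all promoters. Their GC content was 56.7% for Tspan32 and 54.7% for Slc22a18, against a median of 52.7%.

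The 3 genes differed widely in level. Per transcript length, as mean FPKM over the 9 libraries, Tspan32 stood at 16.6, Slc22a18 at 0.668 and H19 at 0.102. They ranked 24, 63 and 77 among the 99 genes. FPKM reached 1 in 9 libraries for Tspan32, in 1 library for Slc22a18 and in 0 for H19. The low genes are therefore described by their estimated counts, of which about 4 correspond to 1 sequenced fragment. Relative library depth, taken from how counts compare with FPKM, ran from 0.921 to 1.06. A normalised count is the estimated count divided by this relative depth.

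H19 was lowest in WT and higher in both other groups. The estimated counts were 3, 9 and 13 in WT replicates 1 to 3, or about 6 fragments in all. They were 25, 19 and 42 in NC replicates 1 to 3, and 31, 38 and 44 in NPC replicates 1 to 3. Every NC and NPC library lay above every WT library, while NC and NPC overlapped. H19 was barely detected in WT, where replicate 1 held less than the worth of 1 fragment.

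As normalised counts, the H19 mean was 8.49 ± 5.07 in WT, 27.7 ± 10.5 in NC and 37.7 ± 7.79 in NPC (SD, n = 3 each). As ratios of these means, H19 rose 3.26-fold from WT to NC and 4.44-fold from WT to NPC. In mean FPKM the ratios were 3.56 and 4.74. The edgeR fit gave a log2 fold change of 1.68 ± 0.57 in NC (SE; 95% confidence interval 0.53 to 2.84; edgeR adjusted p = 0.0174). In NPC the fit gave 2.11 ± 0.55 (1.01 to 3.22; edgeR adjusted p = 0.0016). Among the 87 genes tested, this placed H19 second from the top in NC and first in NPC. With so few fragments, counting error alone allowed a ratio of 1.36 to 10.4 for NC over WT and 1.83 to 13.3 for NPC over WT (95%, conditional on the summed fragments, Clopper-Pearson).

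The size of the H19 rise is therefore loosely fixed. In NC the call did not pass without WT replicate 1 (log2 fold change 1.32, edgeR adjusted p = 0.0855) or NC replicate 3 (1.33, 0.105). Nor did it pass without WT replicate 2 (1.71, edgeR adjusted p = 0.0575). There the fold change was no smaller, but the SE was 0.69 against 0.57 with all libraries. In NPC the call passed whichever of the 9 libraries was left out, with edgeR adjusted p from 0.000969 to 0.0107.

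Slc22a18 was also higher in both groups than in WT. Taking replicates 1 to 3 in turn, WT had 69, 57 and 64 estimated counts, NC had 105, 95 and 141, and NPC had 155, 93 and 90. No NC or NPC library fell as low as the highest WT library. NC replicate 3 and NPC replicate 1 stood apart above the other libraries of their groups. NC replicate 3 was also the NC library highest in H19, while NPC replicate 1 was the NPC library lowest in H19.

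The normalised mean of Slc22a18 was 65.6 ± 9.52 in WT, 110.3 ± 19.5 in NC and 111.0 ± 30.2 in NPC (SD, n = 3 each). As ratios of these means, the gene rose 1.68-fold in NC and 1.69-fold in NPC. The edgeR fit gave a log2 fold change of 0.76 ± 0.26 in NC (SE; 95% confidence interval 0.22 to 1.29; edgeR adjusted p = 0.02). In NPC the fit gave 0.77 ± 0.26 (0.23 to 1.30; edgeR adjusted p = 0.0129). The NC call did not pass without WT replicate 2 (0.65, edgeR adjusted p = 0.0946) or NC replicate 3 (0.60, 0.0994). The NPC call did not pass without WT replicate 2 (0.66, edgeR adjusted p = 0.0701) or NPC replicate 1 (0.52, 0.124).

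Tspan32, the abundant gene of the 3, differed little between groups. Taking replicates 1 to 3 in turn, its FPKM was 15.5, 15.9 and 15.7 in WT, then 17.2, 15.8 and 17.3 in NC, and 17.7, 15.9 and 18.1 in NPC. In NC and in NPC, replicates 1 and 3 lay above all WT libraries, while replicate 2 lay beside WT. These 2 libraries were also the shallowest of their groups, at a relative depth of 0.958 in NC and 0.966 in NPC. The other NC and NPC libraries ran from 0.989 to 1.06, and WT from 0.921 to 1.02. The part of depth in this was not tested.

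As mean FPKM, Tspan32 stood at 15.7 ± 0.183 in WT, 16.7 ± 0.834 in NC and 17.3 ± 1.16 in NPC (SD, n = 3 each). From WT to NPC the gene rose 1.10-fold, by 0.14 ± 0.05 on the log2 scale (SE; 95% confidence interval 0.05 to 0.23; edgeR adjusted p = 0.0102), and its normalised counts did not overlap between these groups. It did not pass without NPC replicate 3 (0.10, edgeR adjusted p = 0.0669). From WT to NC the ratio was 1.07 and the log2 fold change 0.09 ± 0.05 (0.0018 to 0.18), which did not pass (edgeR adjusted p = 0.0889), and the groups overlapped. Of 23 alternatives, 3 passed, namely the fit of the NC and WT libraries alone (edgeR adjusted p = 0.024), without NC replicate 2 (0.0237) and without NPC replicate 2 (0.0467). The other 20 did not, with edgeR adjusted p of up to 0.329 without NC replicate 3.

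**Figure D1:**
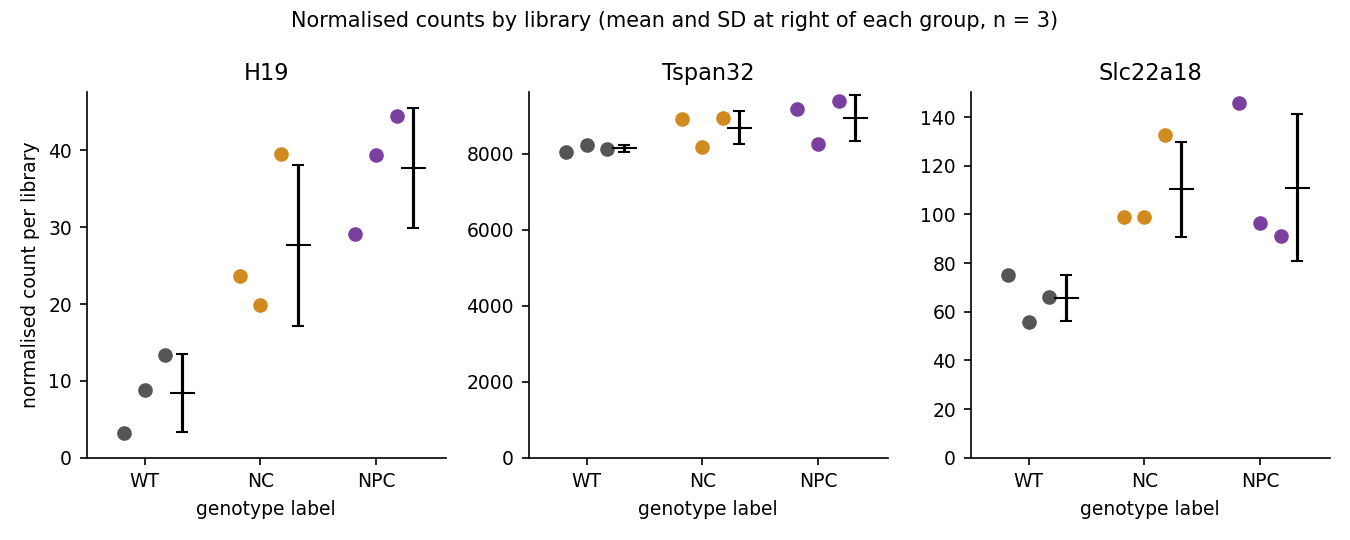
Normalised counts of H19, Tspan32 and Slc22a18 (y axis, count per library divided by relative depth, separate scale for each gene) in the WT, NC and NPC libraries; each point is 1 library, and the bar at the right of each group is the mean with the SD (n = 3). All NC and NPC points of H19 and Slc22a18 lie above the WT points, whereas the lowest NC point of Tspan32 lies among the WT points.

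These calls are to be read against a table in which many genes changed. Of the 87 genes tested, 44.8% passed in NC against WT, with 25.3% higher. In NPC against WT 57.5% passed, with 29.9% higher. Of the 3 genes, 2 were higher in NC and 3 in NPC. The groups did not overlap, with the first group higher, for 26.4% of genes in NC against WT and 27.6% in NPC against WT. This held for 2 of the 3 genes in NC and for 3 in NPC. The median log2 fold change of the 3 genes was 0.76 in NC and 0.77 in NPC, which is the value of Slc22a18 alone. The median log2 fold change of all tested genes was 0.02 and -0.02. The median absolute value over all tested genes was 0.18 in NC and 0.20 in NPC. H19 and Slc22a18 thus exceeded the median size of change and Tspan32 did not, but that median is set mostly by abundant genes. Some other genes with few counts had fold changes of like size from WT to NC. On the log2 scale these were 1.78 for Rem1 and -1.48 for Egfl6, at mean levels somewhat under that of H19. At levels like that of Slc22a18 they were 1.25 for Adora3 and -0.84 for Alox12. Others changed little: 0.11 for Mid2 and 0.02 for Wnt9a near the level of H19, and -0.0065 for Drp2 near that of Slc22a18. In NC against WT, Egfl6, Mid2, Wnt9a and Drp2 did not pass. From WT to NPC, Egfl6 changed more than H19 (-3.16, edgeR adjusted p = 0.003). Cttnbp2 changed about as much (2.08, edgeR adjusted p = 0.008). Both lay at mean levels under that of H19. Rem1 (0.29), Mid2 (-0.061) and Wnt9a (-0.30) did not pass in NPC against WT. All these genes were chosen after their values were seen. Both comparisons share the WT libraries, so the values in NC and NPC are not independent of each other.

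**Figure D2:**
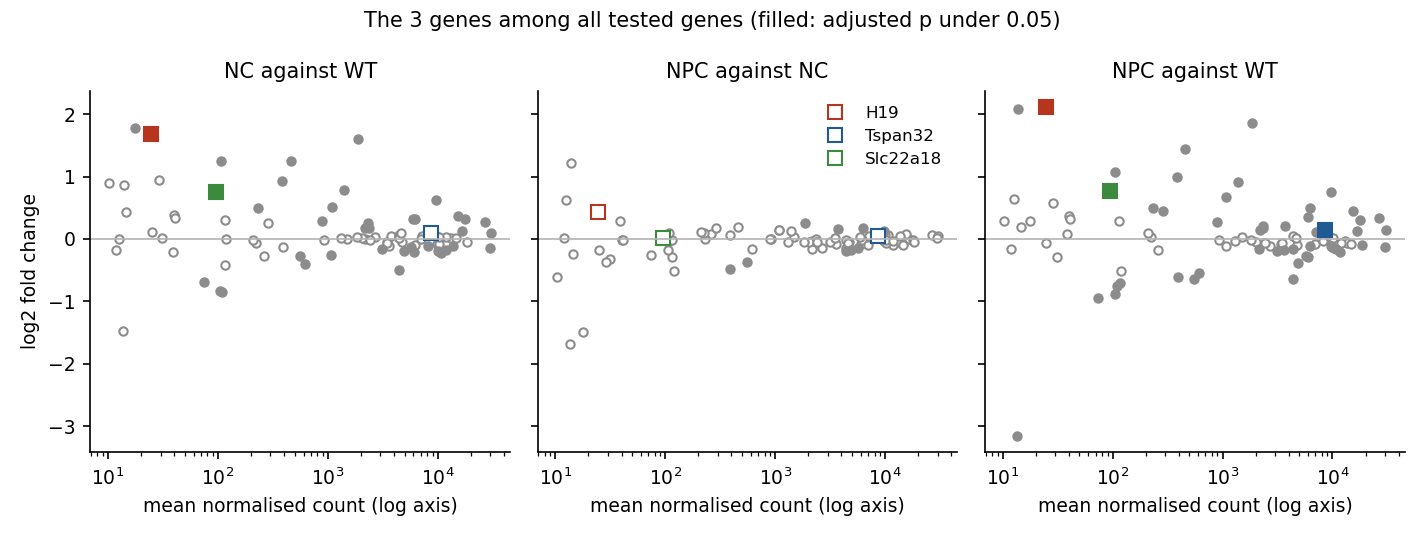
Log2 fold change (y axis) against mean normalised count (x axis, log scale) for the 87 tested genes in each comparison; grey points are the other genes, squares are H19, Tspan32 and Slc22a18, and filled symbols passed at an edgeR adjusted p under 0.05. H19 (2.11) is the highest point in NPC against WT and Tspan32 (0.14) lies in the dense band near 0.

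If NPC carries the Piezo1 knockout as read above, NPC against NC asks what differed with it. None of the 3 genes passed in edgeR, and NPC and NC overlapped for each. Of all tested genes 23.0% had no overlap, so overlap was the rule and does not set the 3 genes apart. H19 had a log2 fold change of 0.43 ± 0.44 (SE; 95% confidence interval -0.46 to 1.32; edgeR adjusted p = 0.701), an interval that reaches from 0.728-fold to 2.49-fold. Leaving out NC replicate 2 gave 0.25 and leaving out NC replicate 3 gave 0.78, neither of which passed. Slc22a18 had 0.01 ± 0.25 (-0.49 to 0.51; edgeR adjusted p = 0.984), and its sign turned under several alternatives. Tspan32 had 0.04 ± 0.04 (-0.05 to 0.13; edgeR adjusted p = 0.701), an interval from 0.967-fold to 1.10-fold, and ran from 0.0028 without NC replicate 2 to 0.097 without NPC replicate 2. The data thus leave room for a rise of over 2-fold in H19 in the NPC libraries against NC, but only for a small change in Tspan32. Of all tested genes 10.3% passed in this comparison. At an unadjusted p under 0.05 it was 0 of the 3 genes and 21.8% of all genes tested, a share at which 0 of 3 is not unusual. DESeq2 and limma called 0 of the 3 as well.

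**Figure D3:**
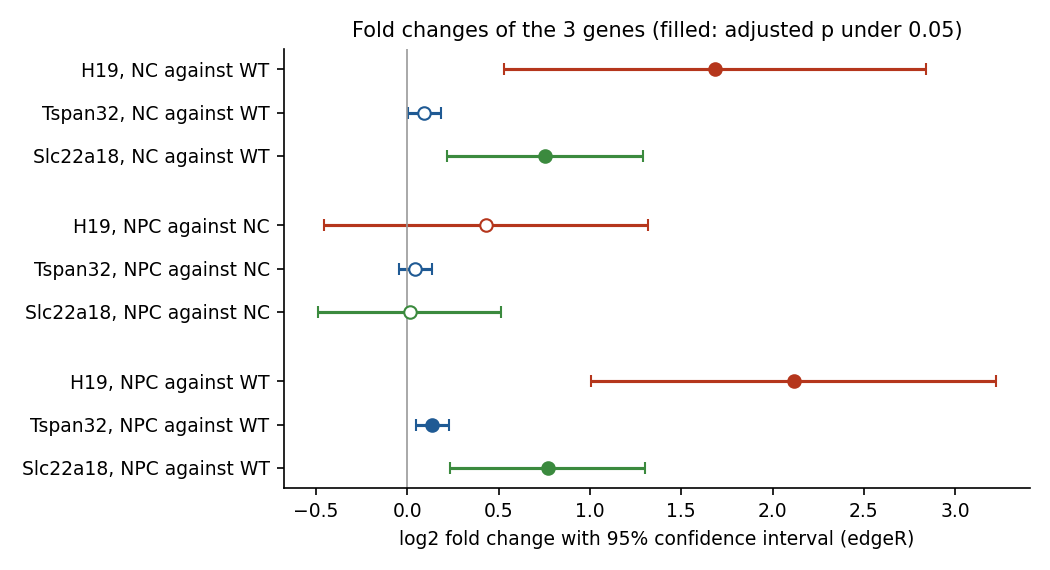
Log2 fold change (x axis) with 95% confidence interval from edgeR for each gene in each comparison; filled points passed at an adjusted p under 0.05. The H19 intervals are the widest, from 0.53 to 2.84 in NC against WT, and all 3 intervals of NPC against NC include 0.

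The order of the levels was WT, NC, NPC for each gene by mean normalised count, but NC and NPC did not differ beyond their spread for any of them. With the NC and NPC libraries set together against WT, one value per library, the mean normalised count of H19 was 32.7 against 8.49, of Slc22a18 110.7 against 65.6, and of Tspan32 8821 against 8145. All 6 NC and NPC libraries lay above all 3 WT libraries for H19 and Slc22a18 but not for Tspan32. An exact two-sided permutation test gave p = 0.0238 for H19 and Slc22a18, the smallest that 84 regroupings allow, and 0.0476 for Tspan32. Adjusted over these 3 tests, the exact permutation p was 0.0357, 0.0357 and 0.0476.

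The levels per length drew closer together. In mean FPKM, Tspan32 stood 478-fold above H19 in WT, 143-fold in NC and 111-fold in NPC. Slc22a18 stood 13.9-fold above H19 in WT, 6.59-fold in NC and 4.99-fold in NPC. Tspan32 stood 34.4-fold above Slc22a18 in WT, 21.7-fold in NC and 22.2-fold in NPC. The H19 ratios in WT rest on about 6 fragments.

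The 3 genes were not seen to follow one another within groups, but 9 libraries are too few to exclude that they do. Over the 9 libraries, Pearson's r of log2(normalised count + 1) was 0.69 for H19 with Tspan32, 0.66 for H19 with Slc22a18 and 0.64 for Tspan32 with Slc22a18. After the group means were taken out it was 0.24, -0.21 and 0.24. These are descriptions over libraries that share groups and depth. H19 also varied most, with a coefficient of variation within groups of 39.4% on average, against 19.8% for Slc22a18 and 4.28% for Tspan32. The 10 genes nearest in level to each had medians of 29.7%, 17.9% and 2.29%.

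The genes whose pattern over the 9 libraries was most like H19 were Sema4f (Pearson's r of log2(normalised count + 1) 0.95), Gm2a (0.90) and Haao (0.90). Sema4f encodes a semaphorin, Gm2a the GM2 activator of lysosomes, and Haao an enzyme of tryptophan breakdown. Those most like Slc22a18 were the transcription factor gene Klf6 (0.85), the G-protein subunit gene Gnai3 (0.83) and the interferon-induced Mx1 (0.82). Those most like Tspan32 were Dazap2 (0.83), the replication gene Cdc45 (0.81) and the T-cell kinase gene Lck (0.79). Each of these genes had a higher mean in NC and NPC than in WT, and r includes that step. Group means were not taken out for them, and shared regulation was not tested.

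The rows analysed here included 3 other genes of chromosome 7, all more than 15 Mb from H19. Septin1 was higher in NC and NPC than in WT, by 0.31 ± 0.04 and 0.35 ± 0.04 on the log2 scale (SE; edgeR adjusted p = 3.07e-07 and 2.71e-08). Xpo6, at 0.02 ± 0.04 and -0.03 ± 0.04, and Clcn4, at 0.09 ± 0.05 and 0.02 ± 0.05, did not pass. For each of H19, Tspan32 and Slc22a18, the nearest genes among these rows were the other two.

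Of 55 marker genes listed for 10 kinds of marrow cell, Lck for T and NK cells and Itgb2l for granulocytes were analysed here. Kit, which encodes c-Kit, was not analysed here, so the c-Kit+ label could not be checked, nor could Piezo1. Normalised counts of Lck ran from 726 to 862 in WT, 1080 to 1199 in NC and 1179 to 1467 in NPC. Those of Itgb2l ran from 12344 to 12756 in WT, 15617 to 17228 in NC and 16866 to 17639 in NPC. Both markers were thus higher in NC and NPC than in WT, as were H19 and Slc22a18. Tspan32, which blood cells of several kinds express, passed against WT only in NPC. Of all tested genes, 25.3% passed as higher in NC and 29.9% in NPC, so such a rise is not particular to these markers. The part of cell types in these changes was not tested. In bulk RNA a change in the share of a cell type cannot be told apart from a change in RNA per cell.

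**Figure D4:**
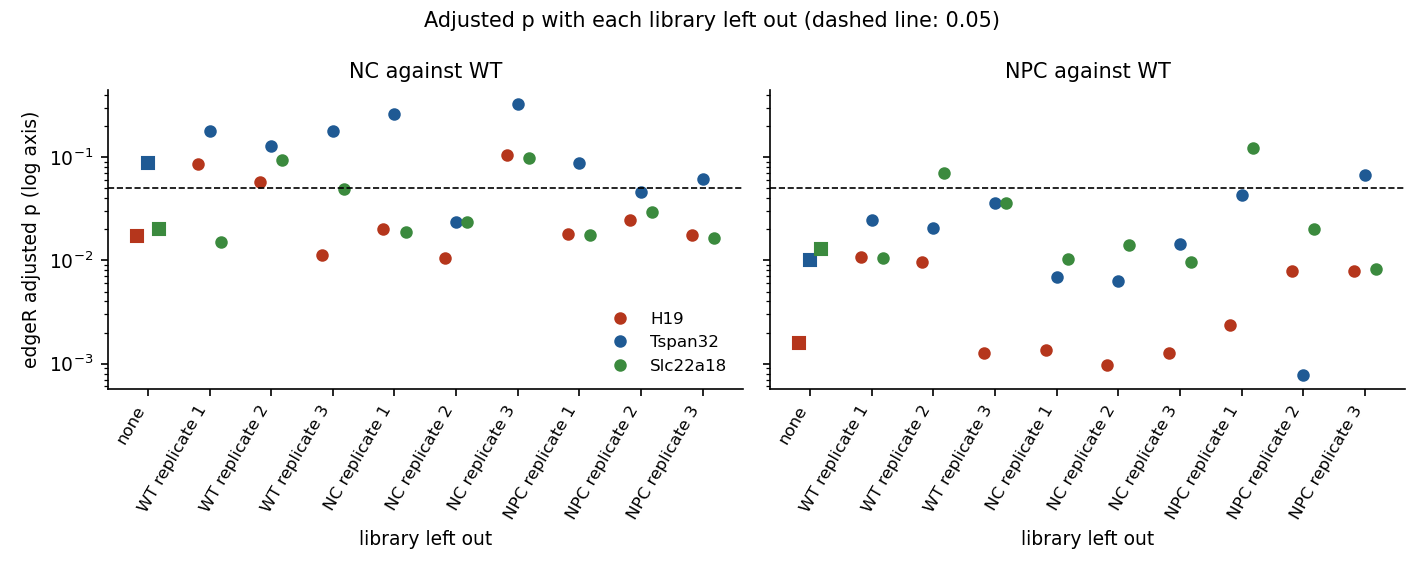
Adjusted p from edgeR (y axis, log scale) for each gene in NC against WT and NPC against WT with all libraries (squares) and with each of the 9 libraries left out in turn (circles); the dashed line is 0.05. H19 stays under the line in NPC against WT throughout, at most 0.0107, and crosses it in NC against WT without WT replicate 1, WT replicate 2 or NC replicate 3.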

How the data were processed

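The authors deposited FPKM values (fragments scaled to transcript length and library total) and an unnormalized estimated count per gene and library, per the file headers. The notes of the submitters name cutadapt 1.9, HISAT2 2.2.1, StringTie 2.1.6, DESeq2 and edgeR on GRCm39, with no role. The sources used here name neither the annotation release nor the strand setting of the counting. The library protocol marks strand, but GENCODE M21 places Tspan32os opposite Tspan32, and Gm27483 and Gm27786 opposite H19, so their reads may not be separable.

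Of 891 deposited counts, 14 equal 4, 0 equal 1, and 1 each equal 2 and 3, so 1 fragment was taken as about 4 counts. Relative depth was the median ratio of count to FPKM over the 61 genes that had 200 counts or more throughout, where 100% of the ratios were met to within 1%. The counts of the 99 genes summed to 387039 to 469541 per library, which is not the depth. Intervals on fragments cover counting error only.

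edgeR 4.0.16 (R 4.3.3) ran its quasi-likelihood test on the estimated counts, already whole, fitting all 9 libraries together by group, without a block and with the relative depth as library size. The 87 genes with a mean of at least 10 counts over all libraries were tested, all 3 described genes among them. P-values were two-sided and Benjamini-Hochberg adjusted over these genes, with a threshold of 0.05. By rule, the genes named were the 3 members, listed genes among the rows analysed and the other genes of chromosome 7 there. For each member, the 3 genes of highest correlation were named too. The genes with few counts set beside H19 and Slc22a18 were chosen outside this rule, after their values were seen. The members, lists and tests were chosen with earlier results of these data known. Alternatives used limma 3.58.1 and DESeq2 1.42.0. Exact permutation tests used SciPy 1.17.1.

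Same-numbered libraries were not treated as paired. Correlations of their deviations from the group means ran from -0.60 to 0.31. Those of differently numbered libraries ran from -0.48 to 0.54, so the correlations do not settle pairing. NC replicates 2 and 3 differed more than counting noise in the deposited counts (a chi-square of 4.83 per degree of freedom), though not at 4 counts a fragment (1.13, p = 0.195). Since that scale is inferred, both were kept. Averaged into 1 library, they left H19 (edgeR adjusted p = 0.031) and Slc22a18 (0.036) past the threshold in NC against WT.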

Additional observations from a re-analysis of the deposited data

How the results depend on the processing

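Over the alternatives, no called direction was reversed. The calls for H19 and Slc22a18 against WT, and for Tspan32 in NPC against WT, were lost only where single libraries were left out. H19 could not be fitted at a mean count of at least 40, nor H19 and Slc22a18 at an FPKM of at least 1. Leaving out each library gave log2 fold changes in NC against WT of 1.32 to 2.15 for H19, 0.60 to 0.86 for Slc22a18 and 0.072 to 0.13 for Tspan32. In NPC against WT they were 1.75 to 2.58, 0.52 to 0.89 and 0.10 to 0.19. In NPC against NC, Slc22a18 ran from -0.24 to 0.17, turning negative without the first NC library (-0.062), the second (-0.058) or the first NPC library (-0.24), under limma on log2(FPKM + 0.1) (-0.0059) and with a replicate block (-0.0025), and passed in none of these. The replicate block changed no call on the 3 genes. The main test used the counts as deposited, and dividing them by 4 changed no call on the 3 genes either. Counts divided by 4 gave H19 an edgeR adjusted p of 0.0201 in NC against WT and 0.00092 in NPC against WT. For Slc22a18 the edgeR adjusted p was then 0.0201 and 0.0135. Tspan32 passed in NC against WT when only those groups were fitted (0.093). On the limma scale, with pseudocounts of 1 and 0.1, log2 fold changes were smaller, at 0.11 and 0.70 in NC and 0.16 and 0.95 in NPC for H19, and at 0.28 and 0.64 in NC and 0.28 and 0.64 in NPC for Slc22a18.

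The count of genes that changed in NPC against NC, 9 in all, was 3 with NC replicates 2 and 3 averaged and 1 to 15 with a library left out (2 without NC replicate 2, 1 without NC replicate 3, 15 without NPC replicate 1, 4 without NPC replicate 2 and 3 without NPC replicate 3). The causes were not tested. With the table's sum as library size, the split in NC against WT was 20 higher and 22 lower, against 22 and 17. In NPC against WT it was 23 and 32, against 26 and 24. In the permutation test, leaving out a library gave differences of 21.6 to 26.7 normalised counts for H19, 38.1 to 49.8 for Slc22a18 and 560 to 803 for Tspan32, and adjusted exact p reached 0.107, 0.107 and 0.143. The calls were lost in 8 of these 9 cases and kept without NC replicate 2 (0.0357). With all 3 WT libraries kept and another NC or NPC library left out, adjusted exact p was 0.0536 for H19 and Slc22a18 and 0.0714 for Tspan32. With 2 WT libraries that test cannot reach 0.05. For H19 and Slc22a18, every NC and NPC library lay above every WT library whichever was left out, so exact p stayed the smallest possible. Their adjusted p then depended on the number of libraries left and on the p of Tspan32, and measures no loss of separation. For H19, precision is limited by about 6 fragments in WT and by the spread between libraries, which holds counting error as well.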
